A study of Mus musculus with 23 samples.

Results

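Regulatory T (Treg) cells are a branch of Cd4 T cells that restrains other immune cells. Their identity rests on the transcription factor Foxp3 and on a set of surface receptors, and interleukin-2 (IL-2) maintains them through STAT5, which IL-2 receptor signalling phosphorylates so that it enters the nucleus and binds DNA. Treg cells carry much IL-2 receptor and circulate through lymph node (LN) and spleen. The 9 genes followed here, out of 32285 in the deposited matrices, are Foxp3 and 8 genes known to be high in Treg cells. Ikzf2 (Helios) and Ikzf4 (Eos) are zinc finger transcription factors of the Ikaros family, and Eos is known as a partner of Foxp3 in gene repression. Ctla4 is an inhibitory receptor that competes for the ligands of Cd28. Tnfrsf18 (GITR) and Tnfrsf4 (OX40) are costimulatory receptors of the TNF receptor family. Gpr83 is a G protein-coupled receptor, Capg caps actin filaments, and Izumo1r is the receptor known in T cells as folate receptor 4. The genes were taken by symbol, and their UMIs (unique molecular identifiers, 1 per captured transcript) were summed over Foxp3+ and Foxp3- Cd4 T cells of each library.

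The LN libraries came from 2-month-old C57BL/6 mice that were wild type (WT, n = 2) or carried Stat5b Y665F on 1 allele (het, n = 3) or on both (homo, n = 2). The spleen libraries, 1 each for WT, Y665H and Y665F mice of the same age and strain, came from CD45+ cells. The study's figure on spleen gives 1 combined sample of several mice per group, although its legend names lymph nodes. Spleen labels give no zygosity. Y665F and Y665H replace the same tyrosine in the SH2 domain of STAT5B with phenylalanine or histidine, in every cell of the mouse, and were introduced by genome editing of C57BL/6N zygotes. The labels do not say whether the LN libraries of a group came from separate mice, so that p-values refer to these libraries. In edgeR the estimate of the spread is shared over genes. Its p-values therefore do not measure the spread of a single gene between the 2 or 3 libraries of a group. After filtering, 39043 LN cells and 18787 spleen cells remained. Median UMIs per cell were between 410.0 and 3100.5 in LN and between 5059 and 6692.5 in spleen. The libraries of het replicate 3 and homo replicate 1, at 410.0 and 436 UMIs, were the shallowest. Libraries shared at most 75 cell barcodes, or 1.54% of the smaller one. Stat5b, the edited gene, was at 136 and 135 CPM in the Foxp3- Cd4 T cells of WT LN, 98.5, 96.5 and 72.3 in het and 82.3 and 101 in homo, which passed no test (edgeR adjusted p = 0.642 for het and 0.731 for homo) and, for a changed codon, does not check the labels.

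A cell entered the Cd4 gate with at least 1 UMI of Cd4, at least 1 UMI of a T cell receptor or CD3 gene and none of Cd8a, Cd8b1 or selected B cell and myeloid genes, and counted as Foxp3+ with at least 1 Foxp3 UMI. The gate held 209 Foxp3+ and 3024 Foxp3- cells in LN and 381 and 2927 in spleen. In LN the WT libraries gave 21 and 50 Foxp3+ cells, the het libraries 77, 36 and 5, and the homo libraries 2 and 18. A wider gate, which replaced the Cd4 UMI by the absence of gamma-delta and NK1.1 gene UMIs, gave 113 and 210, then 181, 137 and 30, and then 51 and 122. All 7 listed Cd4 T cell markers were detected in both gates of the WT and spleen libraries. CPM expresses the UMIs of a gene relative to the total UMIs of its gate. Foxp3+ cells chosen by 1 UMI are missed more often in shallow cells, and Foxp3 levels within the Foxp3+ gate are set by the choice of cells and were not tested.

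The members lie on 5 autosomes and the X chromosome of GRCm38, and 4 of them form neighbouring pairs. Tnfrsf4 (chr4:156013843-156016612) and Tnfrsf18 (chr4:156026164-156028895) are both on the plus strand and 9.55 kb apart, with 2 other annotated genes between them. Gpr83 (chr9:14860210-14870789, plus strand) and Izumo1r (chr9:14885814-14903949, minus strand) are 15.02 kb apart with none between them. Foxp3 spans chrX:7573644-7595245. RefSeq promoter windows, the 250 bases before a start site, were matched for 7 of the 9 genes. They were searched for the letters TTCNNNGAA, the palindrome that STAT5 dimers bind, which reads the same on both strands. These letters occurred in 2306 of 32851 windows (7.02%). They were found once in the window of 1 of the 2 Foxp3 start sites and once in that of Tnfrsf18, and not in the windows of Capg, Ctla4, Gpr83, Izumo1r or Tnfrsf4. The sequences below (RefSeq, GRCm38.p6, 5′ to 3′ on the strand of the gene) show both matches in capitals, and beside them the windows of the 2 receptor genes with called genotype differences in LN. Bases annotated as untranslated are left out, other than in the 29 bases around the Tnfrsf18 match. The Foxp3 window is chrX:7580233-7580482 on the plus strand, and the Tnfrsf18 stretch is chr4:156026213-156026241 on the plus strand. The Tnfrsf4 stretch is chr4:156013611-156013694 on the plus strand, and the Izumo1r stretch is chr9:14903950-14904017 on the minus strand.
Foxp3: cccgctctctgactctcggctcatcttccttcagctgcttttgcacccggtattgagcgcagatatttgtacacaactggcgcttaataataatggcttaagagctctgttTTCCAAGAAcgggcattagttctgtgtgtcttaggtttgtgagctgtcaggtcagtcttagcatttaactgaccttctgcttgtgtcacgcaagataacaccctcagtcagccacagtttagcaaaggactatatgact
Tnfrsf18: tgctctacacTTCACAGAAggcctttaca
Tnfrsf4: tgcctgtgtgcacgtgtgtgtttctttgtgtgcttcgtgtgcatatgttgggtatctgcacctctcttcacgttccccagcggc
Izumo1r: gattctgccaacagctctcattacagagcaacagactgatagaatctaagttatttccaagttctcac

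The first comparison asked whether the 8 genes other than Foxp3 marked the Foxp3+ cells of LN across genotypes. All 3 that passed the filter on low counts in the Cd4 gate were higher in Foxp3+ than in Foxp3- cells. Of the 1065 genes tested, 6.95% were called higher. In the wider gate all 8 passed the filter and all 8 were higher, where 7.08% of 7144 genes were called higher. A gene passed this filter through the cells where it was high. These counts, and the p-values of single members that follow, therefore describe the gates and are no separate support.

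Capg was at 677, 794, 517, 526, 0, 0 and 144 CPM in the Foxp3+ cells of WT replicates 1 and 2, het replicates 1 to 3 and homo replicates 1 and 2, in that order. In Foxp3- cells it was at 49.5, 86.5, 83.4, 109, 181, 144 and 88.9 CPM. The Foxp3+ level was the higher in 5 of the 7 libraries, and the exceptions were the shallow libraries, with 5 and 2 Foxp3+ cells and no Capg UMI. The log2 fold change was 2.63 (SE 0.156; edgeR quasi-likelihood with the library as a block, adjusted p = 1.27e-59). The folds of Tnfrsf18 and Izumo1r were 2.08 (SE 0.166, adjusted p = 2.24e-33) and 1.84 (SE 0.146, adjusted p = 5.91e-34). In the wider gate the largest folds were those of Tnfrsf4 and Ctla4, at 3.49 (SE 0.107) and 3.48 (SE 0.127) on the log2 scale. Ikzf2 followed at 3.19 (SE 0.114), Gpr83 at 2.62 (SE 0.257), Capg at 2.59 (SE 0.0991) and Ikzf4 at 2.30 (SE 0.255). Tnfrsf18 at 2.02 (SE 0.104) and Izumo1r at 1.93 (SE 0.0912) had the smallest. In CD8 T cells of LN, which should lack Foxp3, Tnfrsf18 was between 52.6 and 78.7 CPM and Izumo1r between 13.5 and 39.2 CPM.

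**Figure D1:**
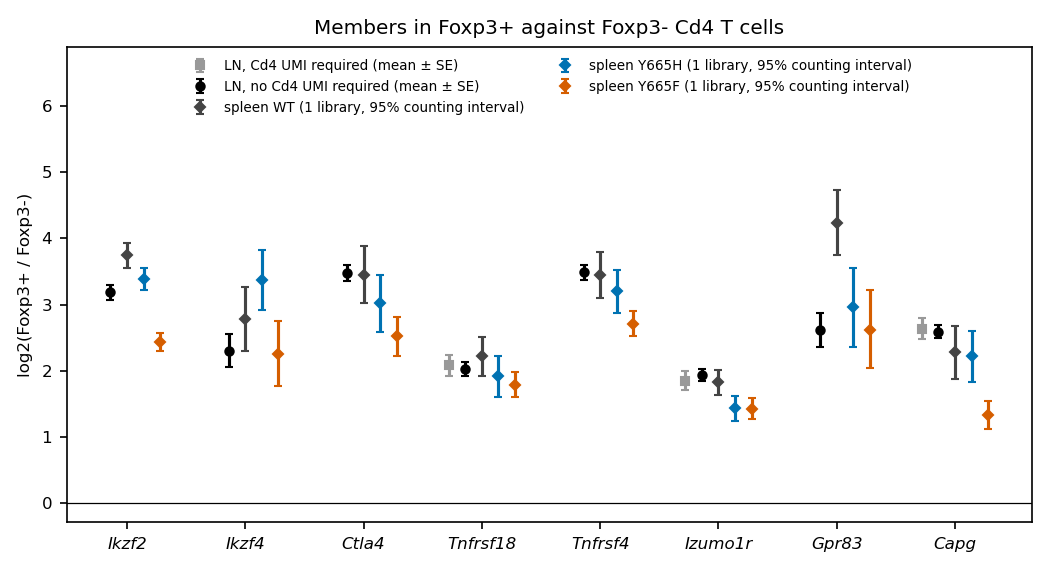
Log2 fold change of each member between Foxp3+ and Foxp3- Cd4 T cells, from the edgeR fits over LN libraries and from the 1 library per genotype in spleen. The points of every member lie above 0, from 1.33 for Capg in spleen Y665F to 4.24 for Gpr83 in spleen WT.

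Other genes of the Treg program were called beside the members in the wider gate, where 7.08% of 7144 genes were called higher. Of 32 other genes known to be raised in Treg cells 20 passed the filter, also through the cells where they were high, and 20 were higher in Foxp3+ cells, among them the IL-2 receptor chain Il2ra (log2 fold change 3.75), Klrg1, an inhibitory receptor of mature lymphocytes (5.42), Lrrc32, which displays latent TGF-beta (3.70), and the integrin chain Itgae (3.42). Of 14 tested genes known to be lower in Treg than in conventional T cells, 12 were lower (6.58% of all genes tested were), led by the phosphodiesterase Pde3b (-3.14), and Id3 was higher. Of the 14 genes of the IL-2 receptor and STAT5 list 8 were higher, including the STAT5 feedback genes Socs2 (3.396) and Cish (2.67), and Jak1 was lower. Of 3 tested transcription factors of helper lineages, Gata3 and Rora were higher and Runx3 was lower. The same filter applied to all these lists, so their counts describe the gates and are no separate support.

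The 8 members were also higher in Foxp3+ than in Foxp3- cells of all 3 spleen libraries, where 1 library per genotype allows no test. In WT spleen the log2 ratio of Foxp3+ to Foxp3- CPM was 4.24 for Gpr83, 3.74 for Ikzf2, 3.45 for both Ctla4 and Tnfrsf4, 2.78 for Ikzf4, 2.29 for Capg, 2.22 for Tnfrsf18 and 1.82 for Izumo1r. In Y665F spleen the ratio was lower than in WT for all 8, at 2.62 for Gpr83, 2.43 for Ikzf2, 2.52 for Ctla4, 2.71 for Tnfrsf4, 2.26 for Ikzf4, 1.33 for Capg, 1.79 for Tnfrsf18 and 1.42 for Izumo1r. In Y665H spleen it was 2.96 for Gpr83, 3.39 for Ikzf2, 3.02 for Ctla4, 3.20 for Tnfrsf4, 3.37 for Ikzf4, 2.22 for Capg, 1.92 for Tnfrsf18 and 1.43 for Izumo1r. The direction against WT depended on the gate in Y665H, where the wider gate turned it for Ikzf2 (3.48 against 3.22 in WT), Tnfrsf4 (3.63 against 3.56), Tnfrsf18 (2.25 against 2.16) and Capg (2.31 against 2.26). Thinning to 2000 UMIs turned it for Ctla4 (2.33 against 2.00) and Izumo1r (1.61 against 1.49). The Y665F ratios were below WT for all 8 in both alternatives. After thinning the intervals of Gpr83 in Y665F (1.20, -0.89 to 2.92) and of Capg in Y665H (1.07, -0.18 to 2.12) spanned 0. Foxp3+ cells of spleen carried on average 4.17 (WT), 3.98 (Y665H) and 4.78 (Y665F) of the other 8 members with at least 1 UMI. Foxp3- cells carried 1.06, 1.19 and 1.85, and CD8 T cells 0.558, 0.686 and 0.596. The share of Foxp3- cells with 3 or more members was 11.4% in WT, 11.98% in Y665H and 24.2% in Y665F.

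The next comparison asked how large the Foxp3+ fraction of Cd4 T cells was. In LN it was 5.37% and 5.60% in the WT libraries, 9.08%, 7.69% and 4.13% in the het libraries and 1.79% and 4.50% in the homo libraries. Both homo libraries lay below both WT libraries, the het libraries reached from below to above WT, and the lowest values of the mutant groups belonged to the shallow libraries. After each cell was thinned to 300 UMIs, which left 0 to 5 Foxp3+ cells per library, the share was 2.12% ± 1.42 (SD, n = 2) in WT, 1.64% ± 1.45 (SD, n = 3) in het and 2.52% ± 1.04 (SD, n = 2) in homo, and no trend with the number of mutant alleles was detected at this depth (exact permutation test, two-sided, p = 0.876, over 210 arrangements, of which the smallest possible p is 0.00952). Without thinning the means were 5.48%, 6.97% and 3.14% (p = 0.438 by the same exact test). CD8 T cells, which should lack Foxp3, had a Foxp3 UMI in 0.0818% to 0.792% of LN cells at median depths of 508 to 3892 UMIs.

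In spleen Foxp3+ cells made up 9.18% of Cd4 T cells in WT (exact 95% binomial interval 7.61 to 10.96), 7.37% in Y665H (5.99 to 8.95) and 21.0% in Y665F (18.3 to 23.9). The Y665F interval lay above the other two, and those of WT and Y665H overlapped. Thinned to 2000 UMIs, with 187, 221 and 121 shallower cells left out in WT, Y665H and Y665F, the shares were 5.14% (3.75 to 6.87), 4.28% (3.06 to 5.81) and 12.7% (9.80 to 16.1). CD8 T cells with a Foxp3 UMI were 1.45%, 1.34% and 1.68% at median depths of 6719.5, 6784 and 8676 UMIs, and 0.584%, 0.600% and 0.779% after thinning. Intervals in spleen cover counting error only, and 1 library per genotype has no replicate check. In bulk sums over a gate, more cells of a type and more RNA per cell cannot be told apart.

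**Figure D2:**
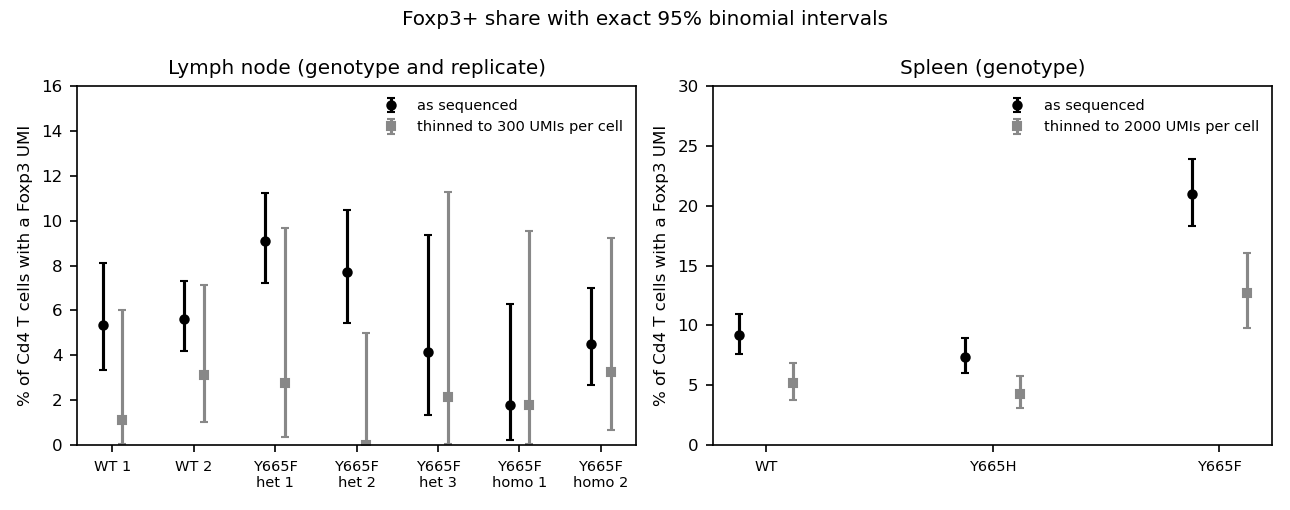
Share of Cd4 T cells with at least 1 Foxp3 UMI, in percent, for each LN and spleen library, without and with thinning of each cell to a fixed number of UMIs. Bars are exact 95% binomial intervals, and the Y665F spleen library stands above the other spleen libraries in both.

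Within each tissue, Foxp3 summed over all Cd4 T cells was lowest in the homo libraries of LN and highest in the Y665F library of spleen. In LN it was at 80.7 and 79.3 CPM in WT, against 73.2, 77.7 and 104 CPM in het and 40.5 and 54.0 CPM in homo. Both homo libraries lay below all others, and the difference from WT, -0.53 on the log2 scale (SE 0.31, edgeR adjusted p = 0.668), did not pass the test. It was -0.07 in the wider gate, where homo and WT libraries overlapped. In the Cd4 gate the Foxp3 UMIs came from 5 Foxp3+ cells in het replicate 3 and from 2 in homo replicate 1. In spleen the sum was at 39.6 CPM in WT, 31.8 in Y665H and 91.2 in Y665F, and that of Y665F exceeded that of WT by 1.20 on the log2 scale (95% counting interval 0.99 to 1.42).

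Within the Foxp3+ cells of LN, Tnfrsf4 was the 1 member that passed the test between homo and WT libraries, and it was lower in homo. Of 536 genes tested 0.373% were called, and 6 of the 8 members could be tested. Tnfrsf4 was at 610 and 781 CPM in WT, against 434, 277 and 2111 CPM in het, with 0 and 48.1 CPM in homo. The homo libraries lay below both other groups, on 0 and 1 UMI, against 18 and 61 UMIs in WT. Tnfrsf4 thus passed the filter on low counts through the WT and het libraries, where it was high. The call describes these libraries and is no separate support for a lower level in homo. Pooled over libraries the WT level was 15.8 times the homo level, with a counting interval of 2.76 to 633. In the wider gate, on 48 homo UMIs, it was 2.09 times (1.53 to 2.90). These intervals leave out the spread between libraries. The fitted log2 fold change was -4.05 (SE 0.96, edgeR adjusted p = 0.00694). It was not called by DESeq2 (adjusted p = 0.993), with doublets kept or with no filter on low counts. It was also lost without WT replicate 1 or 2 (adjusted p = 0.741 and 0.563) and without homo replicate 1 or 2 (0.907 and 0.538), which leaves 1 library in the group. Without both shallow libraries it was -3.94 (adjusted p = 0.0144).

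The wider gate, with 51 and 122 Foxp3+ cells in homo, gave a smaller difference. Here Tnfrsf4 was at 404 and 728 CPM in WT, against 415, 544 and 706 in het and 771 and 207 in homo, so that homo replicate 1 was above both WT libraries and replicate 2 below all others. The log2 fold change was -0.83 (SE 0.33, edgeR adjusted p = 0.647). Without both shallow libraries it was -1.41 (SE 0.31, adjusted p = 0.0104), which leaves 1 homo library.

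None of the other tested members passed in the Foxp3+ gate. Capg, with 20 and 62 UMIs in WT, was at 0 and 3 UMIs in homo (log2 difference -2.56, SE 0.74, edgeR adjusted p = 0.0894). Ikzf2 was at 339 and 550.4 CPM in WT, against 409, 360.2 and 844 in het and 0 and 96.1 in homo, a difference of -2.49 (adjusted p = 0.363). Tnfrsf18 was at 474 and 525 CPM in WT, against 353, 263 and 844 in het and 0 and 144 in homo, a difference of -1.99 (adjusted p = 0.424). For these genes the homo libraries lay below every WT library, and they too passed the filter on low counts through the WT and het libraries. Izumo1r, at 677 and 589 CPM in WT and 1300.4 and 481 in homo, and Ctla4, at 169 and 589 CPM in WT and 3901 and 240.3 in homo, overlapped between the groups. The Foxp3+ gate of homo replicate 1 held 769 UMIs in 2 cells, so its CPM values, the zeros included, rest on very few UMIs. Over both homo libraries Ikzf2 had 2 UMIs, Tnfrsf18 3, Ctla4 8 and Izumo1r 11. Ikzf4 had no UMI in either homo library and Gpr83 had 1 in all, too few to be tested.

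In the wider gate all 8 members were tested and had negative log2 differences between homo and WT, of -0.34 (Capg) to -1.63 (Ikzf4). None of the 8 passed the test, where 0.0651% of 3070 genes did (edgeR, adjusted p under 0.05) and 191 genes had an unadjusted p under 0.05. DESeq2 called none of the 8 there either. Ikzf2 was at 369 and 491 CPM in WT, against 390.1, 366 and 424 in het and 308 and 214 in homo, a log2 difference of -0.87 (adjusted p = 0.482), with the homo libraries below all others. Capg overlapped, at 475 and 532 CPM in WT, against 509, 502 and 636 in het, with 655 and 318 in homo. The 2 genes called in that gate were Tnfrsf9 (4-1BB), a costimulatory receptor of activated T cells, lower by -3.50, and Dapl1, a gene of naive T cells, higher by 2.39. In the Cd4 gate the other called gene was Icos, a costimulatory receptor, with 3 and 63 UMIs in WT and none in homo. Icos also passed the filter on low counts through the WT and het libraries. Of the other Treg genes 4 were tested in the Cd4 gate and 22 in the wider gate, and 1 was lower in each.

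No member was called between het and WT Foxp3+ cells, where 1 of 536 genes (0.187%) was. Tnfrsf4 differed by -0.83 on the log2 scale (SE 0.28, edgeR adjusted p = 0.368), and the 6 tested members had differences of -0.11 to -0.83. Between homo and het libraries edgeR and DESeq2 called no gene, and 34 genes had an unadjusted p under 0.05 in edgeR.

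**Figure D3:**
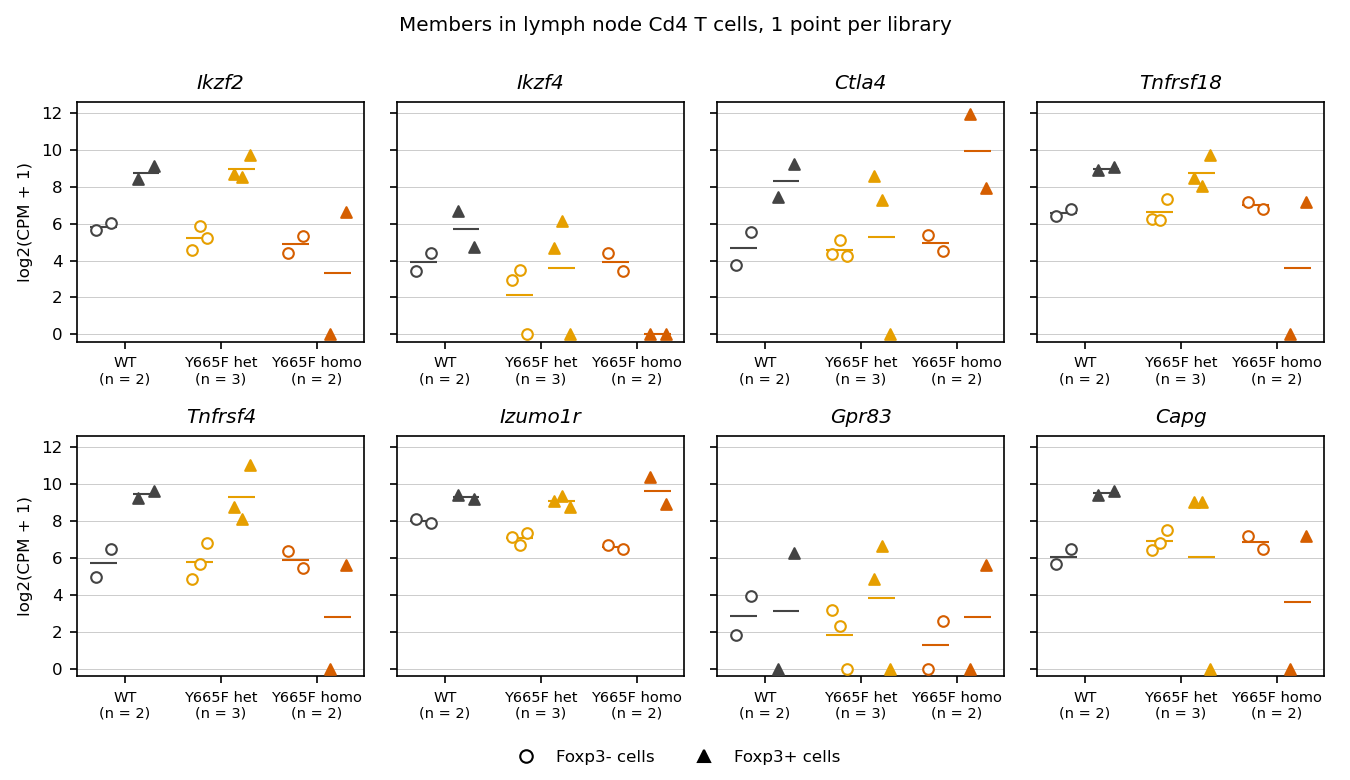
CPM of the members in Foxp3+ and Foxp3- Cd4 T cells of each LN library, by genotype, on a log2 axis of CPM + 1. Each point is 1 library. In Foxp3- cells the Izumo1r points of both homo libraries, at 86.5 and 103 CPM, lie below both WT points, at 238 and 275 CPM.

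Among the members in Foxp3- cells of LN, Izumo1r was lower in both Y665F groups than in WT. It was at 275 and 238 CPM in WT replicates 1 and 2, at 141, 102 and 163 CPM in het replicates 1 to 3 and at 103 and 86.5 CPM in homo replicates 1 and 2. Both WT libraries lay above all 5 mutant libraries, and the het and homo ranges met at 102 and 103 CPM. Group means were 256 ± 26.3 (SD, n = 2), 135 ± 30.9 (SD, n = 3) and 94.7 ± 11.6 CPM (SD, n = 2). The log2 fold change was -1.44 in homo (SE 0.25, edgeR adjusted p = 6.57e-04) and -0.89 in het (SE 0.147, adjusted p = 5.53e-04). The homo to het difference of -0.55 did not pass (adjusted p = 0.895), where 0.0648% of genes did. Among 6169 genes tested, 0.503% were called in homo and 0.211% in het. Izumo1r was the 1 member called of the 6 that could be tested in each contrast.

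Izumo1r kept its direction in each alternative fit, and its call depended on the tool and on the libraries. In the Cd4 gate DESeq2 gave -1.47 (adjusted p = 0.733) and the fit without homo replicate 2 gave -1.49 (adjusted p = 0.797). Without both shallow libraries it was -1.45 (adjusted p = 0.00256). In the wider gate Izumo1r was at 216 and 192 CPM in WT, against 139.9, 113 and 137 in het, with 107 and 96.2 in homo. The homo difference there was -0.95 (SE 0.155, edgeR adjusted p = 0.0132, where 0.278% of genes were called; DESeq2 adjusted p = 0.00195), and the het difference was -0.58 (edgeR adjusted p = 0.208, with 0.0857% of genes called). That homo call was lost without WT replicate 1 or 2 (adjusted p = 0.111 and 0.0916) and without homo replicate 2 (0.181). In CD8 T cells of LN, Izumo1r was at 39.2 and 35.8 CPM in WT, against 17.3, 20.8 and 34.5 in het, with 23.3 and 13.5 in homo. The summed B cell markers of the Foxp3- gate were at 188 and 177 CPM in WT, against 229, 231 and 416 in het and 329 and 287 in homo, and myeloid markers were between 54.2 and 104 CPM in all libraries; their part in the result was not tested.

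The other members did not pass in Foxp3- cells. The homo to WT log2 differences were -0.60 for Ikzf2, -0.52 for both Ctla4 and Tnfrsf4, 0.25 for Tnfrsf18 and 0.41 for Capg. Ikzf2 was at 49.5 and 63.8 CPM in WT, against 22.5, 57.9 and 36.1 in het and 20.6 and 39.5 in homo. Capg was at its lowest, 49.5 CPM, in a WT library and at its highest, 181 CPM, in a het library. Of 16 tested other Treg genes 1 was lower in homo, Rgs1, which dampens G protein signalling (-2.04), and their median was -0.43 against -0.01 over all genes. Of 14 tested genes known to be lower in Treg cells, 3 were higher, Dapl1 (1.69), Igfbp4 (0.92) and Klf2, a transcription factor of naive T cells (0.90). Of 13 tested genes of the IL-2 and STAT5 list 1 was higher, the kinase Pim1 (1.34). Over all genes 0.503% were called in this contrast. In the wider gate, where 0.278% were called, the list genes called were Maf (-1.50), Icos (-1.34), Dapl1 (1.29), Bcl2 (1.03) and Klf2 (0.86). Rgs1, Igfbp4 and Pim1 were not called there.

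Over all Cd4 T cells of LN the called member was again Izumo1r, at 302 and 260 CPM in WT, against 182, 147 and 173 in het, with 122 and 106 in homo. The log2 difference was -1.29 in homo (edgeR adjusted p = 9.26e-04, 0.516% of 6395 genes called) and -0.63 in het (adjusted p = 0.0152, 0.203% called). Most of these cells are the Foxp3- cells of the previous comparison, so this is not a separate observation. The homo call was lost without homo replicate 2 (adjusted p = 0.752) and in DESeq2 (0.677), and the het call without WT replicate 1 (0.0999) and without het replicate 1 or 2 (0.0763 and 0.462). Ikzf2 (-1.05, adjusted p = 0.236) and Tnfrsf4 (-1.19, adjusted p = 0.155) were lower without passing the test.

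**Figure D4:**
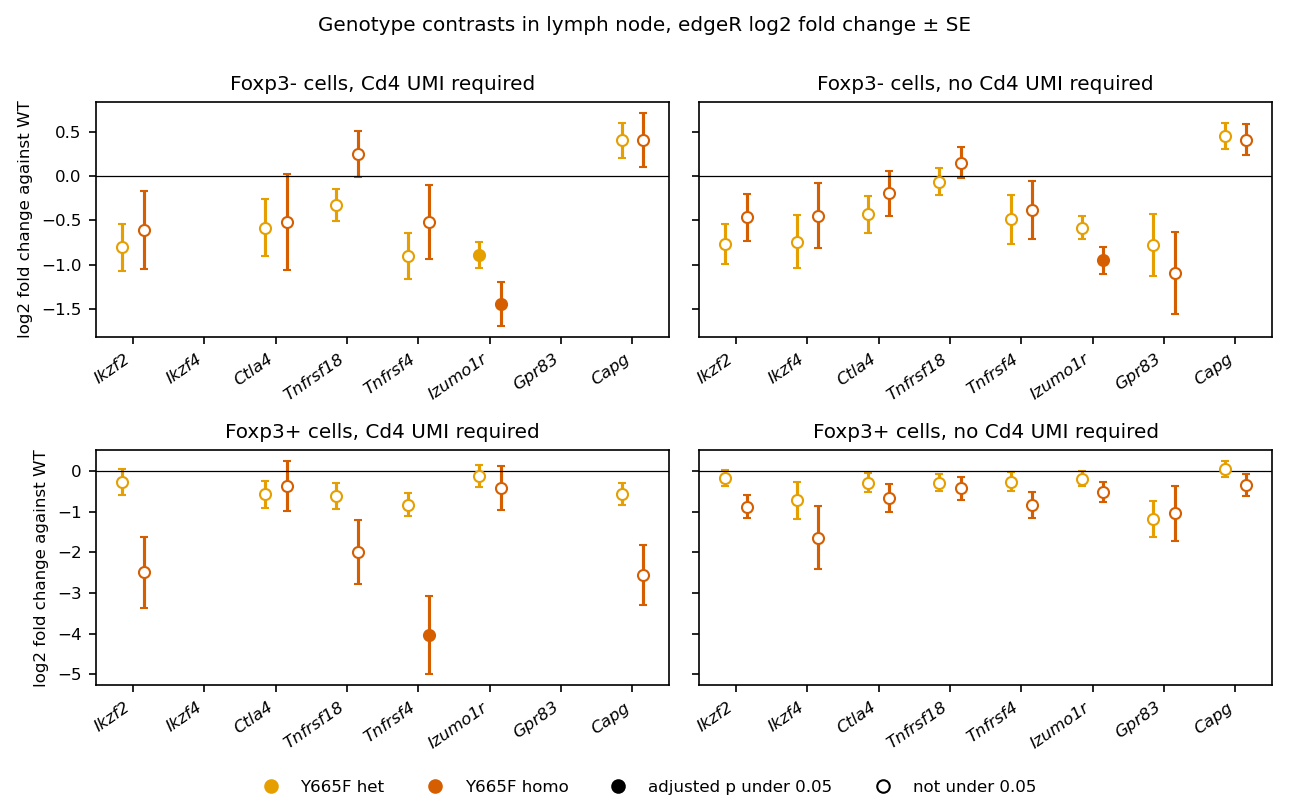
Log2 fold changes of the members between Y665F and WT libraries of LN in Foxp3+ and Foxp3- cells of the Cd4 gate and of the wider gate, from edgeR, with standard errors as bars. Tnfrsf4 in homo Foxp3+ cells, at -4.05, and Izumo1r in Foxp3- cells, at -1.44 in homo and -0.89 in het, are the members called in the Cd4 gate. In the wider gate the called member is Izumo1r in homo Foxp3- cells.

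Whether the genotype differences themselves differed between Foxp3+ and Foxp3- cells was tested with an interaction term. None of the members was called by edgeR or DESeq2, among 1902 genes of which edgeR called 0.105% for homo (112 with an unadjusted p under 0.05) and 0.0526% for het (47). The largest homo values were those of Tnfrsf4, -3.70 (edgeR adjusted p = 0.505), and Capg, -3.07 (adjusted p = 0.121). With RLE size factors Capg passed, at -2.99 (adjusted p = 0.0280).

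In spleen the Foxp3+ cells of the Y665F library held more UMIs of the TNF receptor genes and of Capg than those of WT, and fewer of Gpr83. Tnfrsf4 was at 234 CPM in WT, 262 in Y665H and 552 in Y665F, a log2 ratio of Y665F to WT of 1.23 (95% counting interval 0.97 to 1.504). Capg was at 127, 149.6 and 272 CPM (log2 ratio 1.10, 0.74 to 1.48), and Tnfrsf18 at 229.6, 209.5 and 373 CPM (0.70, 0.42 to 0.98). For these 3 genes the Y665H interval against WT spanned 0, other than for Tnfrsf4 in the wider gate (0.50, 0.24 to 0.77). Ctla4 was at 159, 146 and 212 CPM, a ratio of 0.41 (0.07 to 0.76), or 0.92 after thinning to 2000 UMIs, with an interval that spanned 0 (-0.18 to 2.14). Of the 8 members 2 were at least 2-fold higher in Y665F, where 2.73% of 7003 genes were, and 1 was at least 2-fold lower, where 3.31% were.

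That lower gene was Gpr83, at 164 CPM in WT, 74.8 in Y665H and 57.7 in Y665F, on 102, 40 and 66 UMIs. The WT library stood above both mutant libraries, with log2 ratios of -1.51 in Y665F (-1.97 to -1.04) and -1.13 in Y665H (-1.70 to -0.59). It was detected in 39.1% of WT Foxp3+ cells, 20.4% in Y665H and 18.0% in Y665F. The wider gate gave ratios of -1.46 and -0.89. With cells thinned to 2000 UMIs they were -2.26 and -0.34, on 14, 10 and 4 UMIs, and the Y665H interval then spanned 0. In Y665H Gpr83 was the 1 member past 2-fold in Foxp3+ cells, where 2.74% of genes were at least 2-fold lower.

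Ikzf2 and Izumo1r were close to WT in Y665F Foxp3+ spleen cells. Ikzf2 was at 918 CPM in WT, 1066 in Y665H and 947 in Y665F, and was detected in 70.0%, 75.3% and 70.8% of the cells. Its log2 ratio was 0.04 in Y665F and 0.22 in Y665H (0.05 to 0.39). Ikzf4 was at 99.5, 142 and 69.9 CPM, a ratio of -0.51 in Y665F (-1.01 to -0.01) and 0.51 in Y665H (0.01 to 1.02). The wider gate gave -0.89 (-1.27 to -0.51) and 0.27 (-0.12 to 0.65). After thinning, on 6 to 10 UMIs, both intervals spanned 0, and so did that of Y665H with doublets kept. Izumo1r was at 474, 526 and 490.4 CPM, a ratio of 0.05 in Y665F. Of 25 measured other Treg genes 6 were at least 2-fold higher in Y665F, where 2.73% of all genes were. Among them were Il1rl1, the receptor of IL-33, and Klrg1, and the list median log2 ratio was 0.46 against -0.07 over all genes. In Y665H 5 of the 25 were at least 2-fold higher, where 3.74% of all genes were, and the median was -0.22 against 0.04. S100a4 and Itgae were past 2-fold in both mutants and in both gates. Rgs1 was 2-fold lower in both mutants, and no list gene was in the wider gate, where the Y665H median was 0.28 against 0.06.

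**Figure D5:**
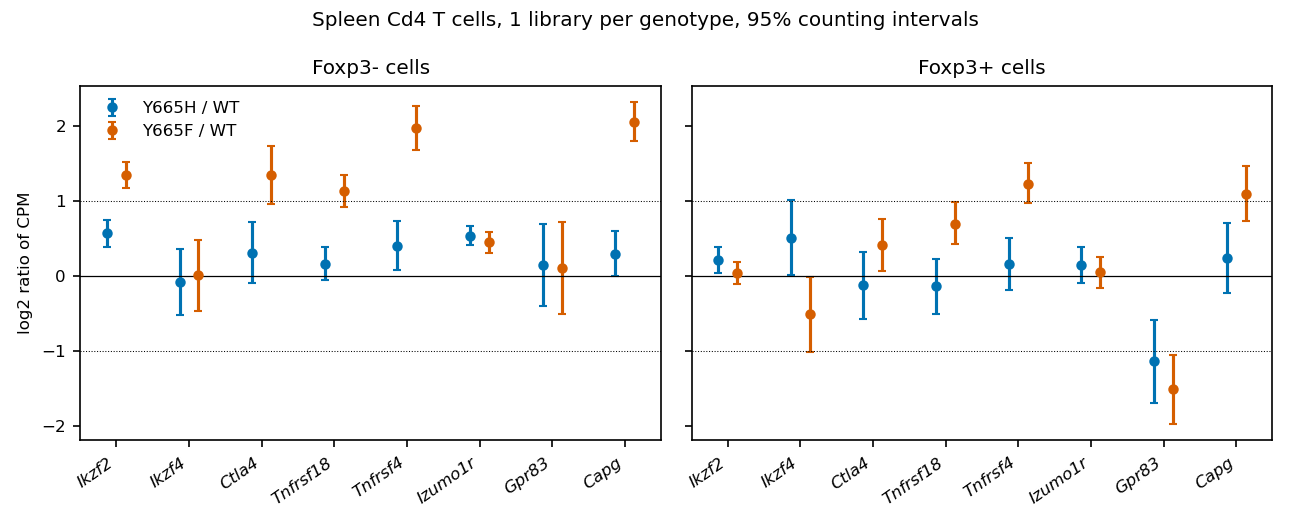
Log2 ratio of CPM to WT for each member in Foxp3+ and Foxp3- Cd4 T cells of the Y665F and Y665H spleen libraries, with 95% counting intervals as bars and 1 library per genotype. In Foxp3- cells Capg and Tnfrsf4 reach 2.06 and 1.97 in Y665F, and in Foxp3+ cells Gpr83 lies at -1.51 in Y665F and -1.13 in Y665H.

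In Foxp3- cells of spleen most members were higher in Y665F than in WT. Capg was at 26.02 CPM in WT, 32.1 in Y665H and 108 in Y665F, 4.16 times the WT level (log2 ratio 2.06, 1.80 to 2.32). Tnfrsf4 was at 21.4, 28.4 and 84.2 CPM, 3.93 times the WT level (log2 ratio 1.97, 1.69 to 2.27). The Y665H library was at 1.23 times WT for Capg and at 1.32 times for Tnfrsf4, and the Y665F library stood far above both others. Ikzf2 was at 68.6, 102 and 175 CPM (log2 ratio of Y665F to WT 1.35), Ctla4 at 14.5, 18.0 and 36.9 CPM (1.34) and Tnfrsf18 at 49.4, 55.4 and 108 CPM (1.13). In all, 5 of the 8 members were at least 2-fold higher, where 1.98% of 10592 genes were, and none was 2-fold lower, where 3.27% were. The wider gate gave 4, since Ikzf2 was at a log2 ratio of 0.96 there, and with cells thinned to 2000 UMIs its ratio was 2.09. Izumo1r was at 134, 195 and 183 CPM, higher in both mutants by 0.45 in Y665F (0.31 to 0.59) and 0.54 in Y665H (0.41 to 0.67). Ikzf4 and Gpr83 had ratios of 0.01 and 0.11 in Y665F.

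The share of cells with a UMI was also higher. In Foxp3- cells Capg was detected in 11.4% of cells in WT, 12.7% in Y665H and 39.4% in Y665F, Tnfrsf4 in 8.55%, 9.41% and 22.5%, and Tnfrsf18 in 23.2%, 23.9% and 40.6%. With cells thinned to 2000 UMIs the Y665F to WT log2 ratios were 2.21 for Capg, 2.48 for Tnfrsf4 and 1.72 for Tnfrsf18. Thinning also removes Foxp3 UMIs, so that some Foxp3+ cells then count as Foxp3-. The Foxp3+ share fell from 9.18% to 5.14% in WT and from 21.0% to 12.7% in Y665F. The thinned ratios of Foxp3- cells, that of Ikzf2 among them, are therefore no check of depth alone. In CD8 T cells of the same libraries the levels of Capg and Tnfrsf4 were close between genotypes, with Capg at 12.8, 16.8 and 17.4 CPM and Tnfrsf4 at 5.34, 7.33 and 6.27 CPM. The 8 myeloid markers summed to 92.4 CPM in WT, 400 in Y665H and 328 in Y665F Foxp3- cells, with Csf1r and Tyrobp at 0 by the gate, and in Foxp3+ cells they summed to 133, 492 and 379 CPM. B cell markers were at 271, 272 and 251 CPM. The part of these markers, and of Treg cells with no Foxp3 UMI, in the Y665F values was not tested.

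Part of the other Treg genes and of the IL-2 response genes was at least 2-fold higher too in Y665F Foxp3- cells of spleen. Of all 10592 genes 1.98% were at least 2-fold higher there and 3.27% at least 2-fold lower. Of 28 measured other Treg genes 14 were at least 2-fold higher, including Il1rl1, Klrg1, Lrrc32 and Il2ra, and 1 was lower, Cd74, with a median log2 ratio of 0.98 against -0.14 over all genes. In Y665H 3 of the 28 were at least 2-fold higher, Lrrc32, Il1rl1 and Itgae, where 1.61% of all genes were. The median was 0.39 against 0.01, and in the wider gate 1 was at least 2-fold higher, Fgl2. Of 14 genes of the IL-2 and STAT5 list 6 were at least 2-fold higher in Y665F, Socs2, Cish, Il2ra, Il2rb, Socs1 and Bcl2, and none was 2-fold lower. Il2ra and Il2rb belong to both lists. Among genes known to be lower in Treg cells 2 of 15 were 2-fold higher, Igfbp4 and Dapl1, and none was 2-fold lower, with a list median of -0.35 against -0.14. In Foxp3+ cells 3 of 14 measured genes of this list were 2-fold lower in Y665F and 2 were 2-fold higher, where 3.31% and 2.73% of all genes were. The median was -0.77 against -0.07.

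The Y665H library had no member past 2-fold in Foxp3- cells, where 1.61% of genes were at least 2-fold higher and 0.765% lower. Its log2 ratio to WT was 0.57 for Ikzf2 (0.40 to 0.75), 0.54 for Izumo1r (0.41 to 0.67), 0.41 for Tnfrsf4 (0.08 to 0.74) and 0.30 for Capg (0.00073 to 0.60), with intervals above 0. With the wider gate the intervals of Ikzf2 (0.08, -0.06 to 0.22) and Capg (0.18, -0.08 to 0.44) spanned 0, and that of Ctla4 lay above it (0.39, 0.04 to 0.76). Over all Cd4 T cells 6 of the 9 members were at least 2-fold higher in Y665F (2.62% of genes) and none lower (3.2% of genes), with log2 ratios of 2.16 for Tnfrsf4, 2.02 for Capg, 1.41 for Ctla4, 1.32 for Tnfrsf18, 1.21 for Ikzf2 and 1.20 for Foxp3. None was 2-fold changed in Y665H, where 1.73% of genes were higher and 0.727% lower.

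In spleen, Foxp3 was found with the members in the same cells. For Capg in Y665H the excess was small after thinning to 2000 UMIs, at 6.33% of 79 cells with a Capg UMI against 4.09% without one. In LN homo replicate 1, none of the few cells with an Ikzf2, Ikzf4, Tnfrsf18, Tnfrsf4 or Capg UMI had a Foxp3 UMI. Some cells with a Ctla4 or Izumo1r UMI did. Of the WT spleen Cd4 T cells with a Gpr83 UMI 50.0% also had a Foxp3 UMI, against 27.5% in Y665H and 51.6% in Y665F. For Ikzf2 the shares were 36.5%, 28.9% and 52.5%, for Tnfrsf4 40.0%, 28.1% and 47.2%, and for Izumo1r 17.0%, 13.3% and 35.5%. For Ikzf4 they were 39.0%, 39.1% and 51.8%. These shares stand beside Foxp3+ shares of 9.18%, 7.37% and 21.0% over all Cd4 T cells, and of 6.03%, 6.20% and 18.6% in cells with no Gpr83 UMI. Thinned to 2000 UMIs, the share for Gpr83 was 31.6%, 34.8% and 15.4%, of 19, 23 and 13 cells, another order than without thinning. It was 28.6%, 19.8% and 29.5% for Ikzf2 and 28.1%, 23.9% and 28.7% for Tnfrsf4 after thinning, so that WT and Y665F were then close for these genes. For Izumo1r the Y665F share stayed above that of WT, at 10.8%, 9.80% and 23.2%. For Ikzf4 the shares were 20.6%, 19.5% and 37.5%, on only 34, 41 and 16 cells with a UMI. The Foxp3+ shares over all Cd4 T cells were 5.14%, 4.28% and 12.7% after thinning, also highest in Y665F. Across the 14 Foxp3+ and Foxp3- sums of LN, the gene that followed the members' mean level most closely was S100a6, a calcium-binding protein (r = 0.80), ahead of Il2rb (0.73) and Mxd4 (0.70), of 1062 genes. Over the 7136 genes of the wider gate none of these was among the 5 closest, which were Samhd1 (r = 0.961), Serinc3, Pkm, Rgs1 and Il2ra (r = 0.958). Members did not all follow their own mean in the Cd4 gate. There r was 0.25 for Ctla4 and 0.35 for Izumo1r, and between 0.67 (Gpr83) and 0.81 (Ikzf2) for the others. These correlations describe 14 sums that share libraries and depth, pairwise from the same 7 libraries.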

How the data were processed

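Single-cell RNA-seq of 7 LN and 3 spleen libraries was used. The deposited files hold raw counts, the UMIs of each gene in each droplet, from the authors' Cell Ranger runs (version 5.0.0 for LN and 6.0.0 for spleen, per the file headers). The submitters' processing notes name mm10. The labels name a 3′ kit and the study's methods a 5′ kit, so levels were compared only within a tissue. The authors' thresholds on cells are not given in the sources used here.

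Kept barcodes had 200 genes or more and no more than 10% of UMIs from mitochondrial genes. A doublet score was computed per library against simulated pairs of cells, and the highest 0.8% per 1000 barcodes were removed. No cells were clustered: gates were set on UMIs of named genes. UMIs were summed per library and gate and tested with edgeR 4.0.16 (R 4.3.3, quasi-likelihood, TMM, filterByExpr), Benjamini-Hochberg adjusted over all genes tested, and called at an adjusted p under 0.05. The library was a block between gates. Log2 fold changes are edgeR's, with standard errors derived from its tests. DESeq2 1.42.0 was an alternative. In spleen a ratio of CPM was given with its exact 95% counting interval. Shares of 2-fold differences over all genes took genes with at least 30 UMIs over the 3 libraries, with 0.5 added to both counts. Ratios of the members had nothing added, and after thinning some are given below 30 UMIs. The fits were tested on simulated counts. Promoter windows came from RefSeq (GRCm38.p6) and positions from the GENCODE annotation of GRCm38. Python 3.11.15, numpy 2.4.6, pandas 2.3.3, scipy 1.17.1 and matplotlib 3.10.9 were used.

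The members and lists were chosen with earlier results of these data known. The genes named were the 9 members, the list genes that passed the test between homo and WT libraries of LN (at most 10 per gate, by size), the genes most like the members in LN, and Stat5b. List genes named between gates and in spleen were chosen after their values were seen. The T-cell receptor and bone marrow libraries were not used here.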

Additional observations from a re-analysis of the deposited data

Results flagged for a closer look

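In 8 cases both homo Y665F libraries of LN lay below both WT libraries while the counting interval of the Y665F to WT ratio in spleen lay above 0. In Foxp3+ cells these were Tnfrsf4 (spleen log2 ratio 1.23, LN log2 fold change -4.05), Capg (1.10 and -2.56) and Tnfrsf18 (0.70 and -1.99). In Foxp3- cells they were Ikzf2 (1.35 in spleen, -0.60 in LN) and Izumo1r (0.45 and -1.44). Over all Cd4 T cells they were Foxp3 (1.20 and -0.53), Ikzf2 (1.21 and -1.05) and Izumo1r (0.59 and -1.29). Most of these cells are the Foxp3- cells, so Ikzf2 and Izumo1r are not separate cases there. The share of all genes that met this rule was not counted. With 2 libraries a group such an order arises easily, so the number of cases is no result about the members. The Foxp3+ values of LN rest on 2 and 18 homo cells, with 769 UMIs in all in replicate 1. In the wider gate homo and WT libraries overlapped for all 3 genes of Foxp3+ cells, with homo replicate 1 at 771 CPM of Tnfrsf4, above both WT libraries (404 and 728), at 655 CPM of Capg, also above both (475 and 532), and at 424 CPM of Tnfrsf18, between them (361 and 477). They overlapped there for Foxp3 over all Cd4 T cells as well. Of the LN values those of Tnfrsf4 and Izumo1r passed the edgeR test. The difference between the tissues was not tested. Tissue, depth and, where labels give none, zygosity differ together between these libraries and cannot be told apart.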

How the results depend on the processing

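The number of members called at an adjusted p under 0.05 in LN depended on the gate, the tool and single libraries. Settings combined with the wider gate, and those without both shallow libraries, were chosen after seeing the data. Homo against WT in Foxp3+ cells, the count was 1, against 0 with DESeq2, with doublets kept, with no filter on low counts and in the wider gate (also with DESeq2 or the replicate block there), 2 with RLE size factors, and 0 to 1 with each library left out (0 in the wider gate). In Foxp3- cells it was 1 for homo, against 0 with DESeq2 and 0 to 1 with each library left out, in either gate. For het it was 1, against 0 with DESeq2, with an absolute log2 fold change over 1 and in the wider gate (also with DESeq2, with the block, without both shallow libraries or without any 1 library), 2 with at least 500 genes per cell, and 1 to 2 with each library left out. Over all Cd4 T cells it was 1 for homo, against 0 with DESeq2 and 0 to 2 with each library left out in either gate, and 1 for het, against 0 with DESeq2, with a log2 fold change over 1, with at least 500 genes and in the wider gate (also in its 3 variants and without any 1 library), and 0 to 1 with each library left out. Between Foxp3+ and Foxp3- cells 3 members were called, against 6 with at least 500 genes or without both shallow libraries, 8 with no filter and 8 in the wider gate (also with DESeq2 or without both shallow libraries), 1 to 6 with each library left out (1 without WT replicate 2, het replicate 1 or het replicate 2) and 6 to 8 in the wider gate. The interaction gave 0 members and 1 with RLE size factors. With cells thinned to 300 UMIs no member passed the filter in LN, and the fit in Foxp3+ cells could not be made. Where a group kept 1 library, that library was assumed to vary like the others. The cause of these differences was not tested.

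The homo minus WT difference of the Foxp3+ share in LN, 0.405 percentage points, turned to -2.34 without thinning, -1.55 at 500 UMIs, -0.272 with doublets kept and -0.346 in the wider gate, and was -0.602 to 1.41 with each library left out. Foxp3 over all Cd4 T cells in het, -0.01 on the log2 scale, was 0.0301 with DESeq2, 0.0456 with doublets kept, 0.00599 with no filter and -0.0751 to 0.0541 with each library left out. In the wider gate it was 0.0786, with the block 0.277, without both shallow libraries 0.287, without WT replicate 1 0.140, without het replicate 3 0.283 and without homo replicate 1 or 2 0.0761 and 0.0865. In homo it was 0.0550 in the wider gate without both shallow libraries and 0.0499 there without homo replicate 1. Tnfrsf4 in Foxp3+ cells of the wider gate was 0.11 without homo replicate 2. In spleen Foxp3- cells 4 members rather than 5 were 2-fold higher in Y665F in the wider gate. In spleen Foxp3+ cells 1 member rather than 2 was 2-fold higher in Y665F with doublets kept or in the wider gate, and 0 rather than 1 was 2-fold lower in Y665H in the wider gate or thinned. Ikzf2 in Y665H was -0.12 when thinned.

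Correlations of the deviations of same-numbered LN libraries were -0.0225 to 0.0236 in the Cd4 gate and -0.218 to 0.135 in the wider gate. With 2 libraries in a group the deviations mirror each other, so these values cannot decide whether replicate numbers pair the libraries. With the replicate number as a block, Tnfrsf4 in Foxp3+ cells was -3.99 (edgeR adjusted p = 0.0462) and Izumo1r in Foxp3- cells -1.36 (0.00418) in homo and -1.02 (4.57e-04) in het, so that 1 member was called in each. Between gates and in the interaction the library was already a block. The count of all genes called in Foxp3- cells, 31, ranged from 1 to 97 over the alternatives, and in Foxp3+ cells, 2, from 0 to 21. Between gates it was 145, with a range of 0 to 1172.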
